A study of Mus musculus with 44 samples.

Results

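The *Zscan4* family comprises 6 mouse genes, *Zscan4a* to *Zscan4f*, and its members were taken by name from the deposited table of all genes. Of the 35269 genes in that table, 5 were members: *Zscan4b*, *Zscan4c*, *Zscan4d*, *Zscan4e* and *Zscan4f*. *Zscan4a*, which the annotation lists as an unprocessed pseudogene, was not analysed here. The 5 members were measured in 44 single 2-cell embryos (E1.5) on a C57Bl/6 background, collected after natural matings in a study of whether maternal Dppa2 and Dppa4 are needed for zygotic genome activation. The maternal knockout females (cKO) carried floxed *Dppa2/4* alleles that were deleted in growing oocytes by Cre under the *Zp3* promoter. The deletion runs from exon 2 of *Dppa4* to exon 7 of *Dppa2*, so both genes are lost together. The 14 WT embryos (Dppa2/4+/+) came from control females and wild-type males. The 15 HET1 embryos (Dppa2/4+/-) came from cKO females and wild-type males. The 5 HET2 embryos (Dppa2/4+/-) and the 10 HOM embryos (Dppa2/4-/-) came from cKO females and heterozygous males, and the authors had assigned their genotypes from the *Dppa2* and *Dppa4* transcripts. Every embryo outside the WT group therefore grew from an egg without maternal *Dppa2/4*, and the 3 crosses contributed 2 litters each (mating 1 and mating 2).

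Zscan4 proteins have a SCAN domain, through which such proteins pair, and zinc fingers that bind DNA. The genes are transcribed in a short burst at the 2-cell stage, and in embryonic stem cells (ESCs) only in the small, transient fraction known as 2C-like cells, where Zscan4 is best known for lengthening telomeres. In ESCs the transcription factor DUX activates *Zscan4* from its promoters, and Dppa2 and Dppa4 act upstream of *Dux*. The family was therefore followed in these embryos as a readout that lies downstream of Dppa2/4 in cultured cells.

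In the GRCm38 annotation (GENCODE) the family lies in a tandem cluster of 819871 bp on chromosome 7, from 10794242 to 11614112, together with 3 further rows of the table named *Zscan4-ps1*, *Zscan4-ps2* and *Zscan4-ps3*. *Zscan4b* spans 10900740 to 10905050 on the reverse strand and *Zscan4c* spans 11005745 to 11010547 on the forward strand. *Zscan4d* spans 11161374 to 11166159 and *Zscan4e* spans 11306378 to 11310682, both on the reverse strand. *Zscan4f* spans 11397915 to 11402318 on the forward strand. Each member has 4 exons and is annotated as protein-coding, with a coding length of 1515 bp in *Zscan4b* and *Zscan4e* and 1518 bp in the other members. The -ps rows carry names of pseudogenes, although this annotation lists them as protein-coding with a coding length of 1518 bp as well.

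The promoters of the family are nearly as alike as the genes, and are shown because they hold the letters that DUX is known to bind. Promoters of 4 of the 5 members were found in the RefSeq table of this organism (GRCm38.p6). Each line gives the 150 bases that end at the base before the annotated transcript start, read 5′ to 3′ in the direction of the gene, with capitals for a TATA box and for a DUX motif. On chromosome 7 these stretches are chr7:10905051-10905200 on the reverse strand for *Zscan4b*, chr7:11005595-11005744 on the forward strand for *Zscan4c*, chr7:11166160-11166309 on the reverse strand for *Zscan4d* and chr7:11397765-11397914 on the forward strand for *Zscan4f*.
Zscan4b: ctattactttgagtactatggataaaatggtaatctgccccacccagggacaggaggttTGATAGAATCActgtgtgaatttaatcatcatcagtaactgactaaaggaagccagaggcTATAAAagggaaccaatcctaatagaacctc
Zscan4c: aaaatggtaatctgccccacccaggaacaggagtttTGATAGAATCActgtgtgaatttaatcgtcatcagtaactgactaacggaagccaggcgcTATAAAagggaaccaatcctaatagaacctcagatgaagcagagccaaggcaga
Zscan4d: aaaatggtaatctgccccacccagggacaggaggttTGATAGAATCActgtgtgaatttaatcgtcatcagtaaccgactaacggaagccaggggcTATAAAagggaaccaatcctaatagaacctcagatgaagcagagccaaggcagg
Zscan4f: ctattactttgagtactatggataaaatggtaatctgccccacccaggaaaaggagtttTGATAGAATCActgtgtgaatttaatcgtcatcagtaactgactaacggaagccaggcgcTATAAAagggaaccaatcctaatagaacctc

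All 4 promoters held TATAAA, a motif found on either strand in 13.6% of the 32851 promoters of the RefSeq table, which span 250 bases before to 50 bases after each start. All 4 also held the DUX motif, searched on both strands as TGATT and ATCA separated by any 2 bases, which occurred in 68 promoters (0.207%). In each of the 4 promoters the DUX motif was TGATTCTATCA on the opposite strand, printed above as TGATAGAATCA, and it does not overlap the TATA box. The TATA box began 31 bases before the end of the printed stretch in *Zscan4b* and *Zscan4f* and 54 bases before it in *Zscan4c* and *Zscan4d*, and the DUX motif began 91 or 114 bases before it in the same pairs. Counted over aligned bases, the promoters were 95.3% to 99.2% identical. These matches describe the letters of the window, not a bound site.

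How far reads can be given to 1 member is limited by this likeness. The principal transcripts of the 5 members were 96.8% to 99.7% identical over their aligned bases, with *Zscan4b* and *Zscan4e* (99.7%) and *Zscan4c* and *Zscan4f* (99.6%) the closest pairs. Among all windows of 75 bases, the read length, 60.5% of those in *Zscan4d* occurred in no other transcript of the annotation. The share was 21.4% in *Zscan4c*, 14.05% in *Zscan4b*, 12.6% in *Zscan4e* and 7.58% in *Zscan4f*. The authors had kept only reads with a mapping quality of at least 20, which removes reads that fit several members about equally well, so the values below are those of the reads that could be placed and undercount the members to different degrees. Sequencing was paired-end, and the second read of a pair can place its mate, which the windows do not take into account.

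Total reads per embryo ranged from 247667 to 3163026, with medians by litter between 524828 in mating 2 of HET1 and 1770009.5 in mating 1 of WT. By group the medians were 1770009.5 in WT, 528166 in HET1, 1108889 in HET2 and 803369 in HOM embryos. Counts of embryos with reads, given below, therefore compare groups of unequal depth. Values are RPM, the reads of a gene scaled to a total of 1000000 reads per embryo, so that a change in 1 transcript and an opposite change in the rest of the RNA cannot be told apart. Genes without reads hold 0.9 read in the deposited log2 RPM, and for the tests every value under 1.86 on the log2 scale (3.63 RPM, the highest such value) was set to 1.86, called here the common floor. The label of 2-cell embryo was checked against 8 marker genes, each of which had reads in every litter, with a sum between 432 and 2777 RPM per embryo. Of 12 granulosa and cumulus markers, which would mark adhering follicle cells, *Kitl* had reads in 34 embryos (median 7.63 RPM, highest 47.3), *Star* in 20 and *Cyp19a1* in 16. The defining markers *Fshr*, *Amh* and *Foxl2*, picked after their values were seen, had reads in 0, 1 and 2 embryos, and the list summed to at most 52.0 RPM, with a part in the results that was not tested. HET2 embryo 5, the only HET2 embryo of mating 2, held 472 RPM of *Dppa2*, within the range of the WT embryos (204 to 678 RPM), while the other 4 HET2 embryos held 27.2 to 101 RPM. Its *Dppa4* level was 54.5 RPM, below the lowest WT embryo (80.2 RPM) and within the range of the HET1 embryos (10.6 to 164 RPM).

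Few reads were placed in the family, and *Zscan4d* contributed most of them. Each of the 44 embryos held at least 1 read of a member, with a median of 52 reads and a highest value of 482, and 42 embryos held 3 reads or more. *Zscan4d* had reads in 42 of 44 embryos, at a median of 29.8 RPM (lowest 0, highest 187). *Zscan4f* had reads in 36 embryos, at a median of 8.59 RPM (lowest 0, highest 90.4). *Zscan4b* had reads in 38 embryos (median 3.77 RPM), *Zscan4e* in 32 (median 3.07 RPM) and *Zscan4c* in 26 (median 1.16 RPM), and each of these lay at 0 in at least 6 embryos. All 5 members had reads in 20 embryos. Over all embryos, 1950 of the 3588 reads of the family (54.3%) were of *Zscan4d* and 880 (24.5%) of *Zscan4f*. *Zscan4b* had 9.09%, *Zscan4e* 6.94% and *Zscan4c* 5.10%. *Zscan4d* was the member with the most reads in 36 embryos, *Zscan4f* in 6, and *Zscan4b* and *Zscan4e* in 1 each.

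The order of the members depended on the scale. Per kilobase of merged exons the mean level was 15.8 RPM for *Zscan4d* and 8.24 for *Zscan4f*, and between 1.53 and 3.54 for the other members. Per 1000 windows of 75 bases found only in that gene, the mean level was 121 RPM for *Zscan4f*, 27.1 for *Zscan4d*, 27.0 for *Zscan4b*, 21.3 for *Zscan4e* and 7.42 for *Zscan4c*. *Zscan4d* was thus the highest member by RPM and per kilobase, and *Zscan4f* was the highest per window that belongs to 1 gene. With 133 such windows in *Zscan4f*, the last scale rests on a short stretch of sequence. Shares of reads given below describe placed reads, and do not rank the members by transcript level.

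**Figure D1:**
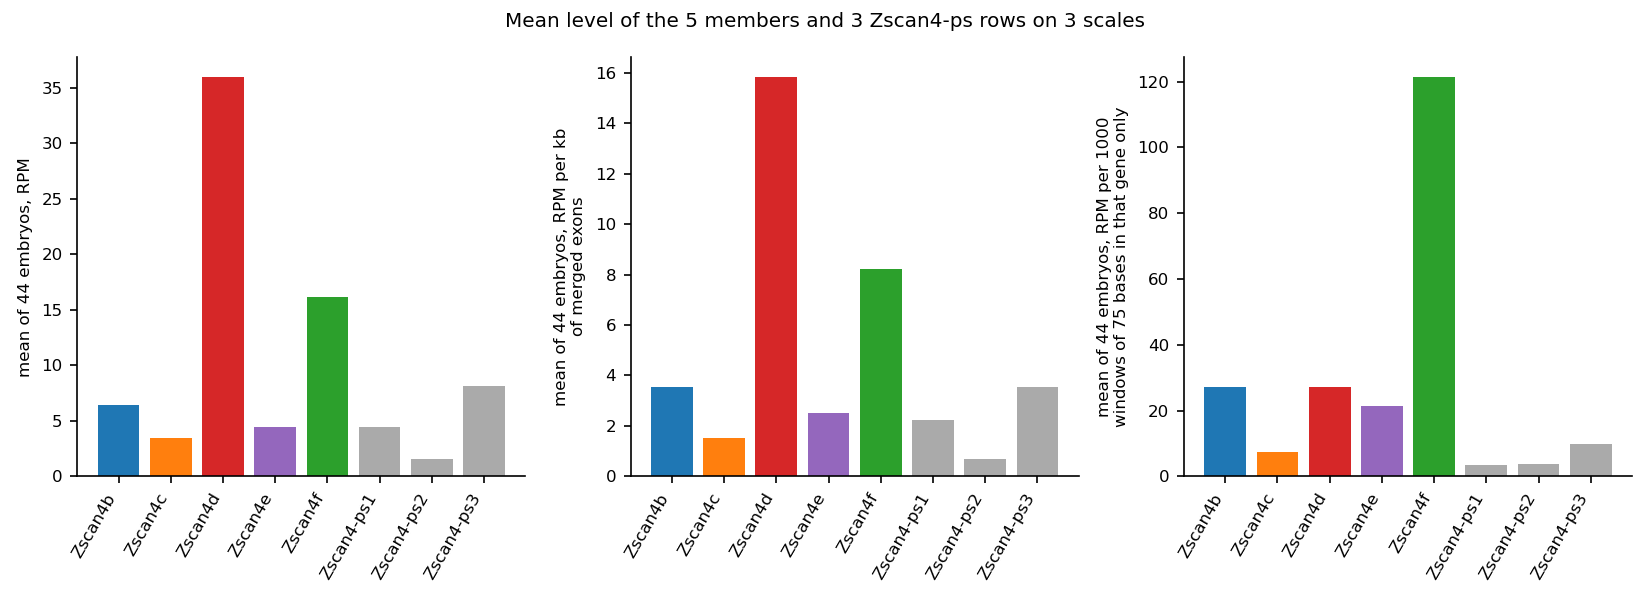
Mean level of the 5 members (coloured) and the 3 -ps rows (grey) over 44 embryos, as RPM, as RPM per kilobase of merged exons, and as RPM per 1000 windows of 75 bases that occur in that gene only. *Zscan4d* is highest on the first 2 scales (36.0 RPM and 15.8 RPM per kilobase) and *Zscan4f* on the third (121 RPM per 1000 windows).

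The make-up of the family's reads varied between groups. *Zscan4d* held 58.3% of the family's reads in WT embryos, 55.5% in HET1 embryos, 40.3% in HET2 embryos and 61.9% in HOM embryos. *Zscan4f* held 17.7%, 25.6%, 38.8% and 17.3% in the same order. The high *Zscan4f* share in HET2 embryos came from 2 embryos of mating 1, with 193 and 52 *Zscan4f* reads, in which more reads were placed in *Zscan4f* than in *Zscan4d*. In HET1 embryos *Zscan4d* held the most reads in 15 of 15. These shares pool embryos of unequal depth and are a description.

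**Figure D2:**
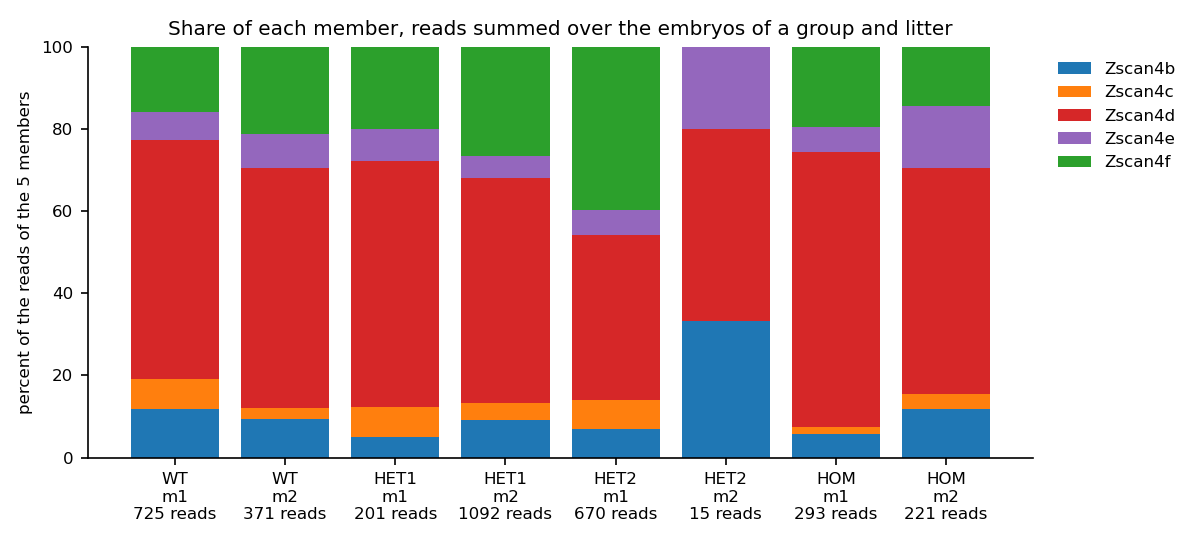
Percent of the family's reads that fell on each member, with reads summed over the embryos of a group and litter (m1 and m2: mating 1 and 2; the number of reads stands under each bar). *Zscan4d* takes 40.1% to 66.9% in each bar, and the HET2 m2 bar is 1 embryo with 15 reads.

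In each group the members spread widely between embryos. *Zscan4d* lay between 0 and 51.8 RPM in WT embryos (median 22.5), between 5.66 and 187 in HET1 embryos (median 41.7) and between 0 and 48.4 in HOM embryos (median 11.2). In the 5 HET2 embryos it stood at 58.5, 43.3, 35.8, 64.4 and 4.06 RPM. The ranges of the 4 groups overlapped, and the highest value of any embryo was in HET1.

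*Zscan4f* lay between 0 and 17.7 RPM in WT embryos (median 5.18), between 0 and 90.3 in HET1 embryos (median 20.8) and between 0 and 18.0 in HOM embryos (median 2.72). In the HET2 embryos it stood at 90.4, 5.41, 74.4, 13.6 and 0 RPM, so that 1 heterozygous embryo held the highest value of the 44 and another held no read. *Zscan4b* lay between 0 and 11.0 RPM in WT embryos (median 3.20), between 0 and 24.2 in HET1 embryos (median 8.74) and between 0 and 7.42 in HOM embryos (median 3.74), and stood at 14.04, 2.71, 7.16, 8.16 and 2.90 RPM in the HET2 embryos. *Zscan4c* reached 6.84 RPM in WT embryos, 15.1 in HET1 embryos and 2.62 in HOM embryos, with reads in 8 of 14, 11 of 15 and 3 of 10 embryos, and stood at 8.43, 0.902, 21.5, 11.8 and 0 RPM in the HET2 embryos. *Zscan4e* reached 17.9 RPM in WT embryos, 14.3 in HET1 embryos and 10.5 in HOM embryos, and stood at 10.3, 9.92, 2.86, 5.44 and 1.74 RPM in the HET2 embryos. The last value of each HET2 series belongs to the only HET2 embryo of mating 2, which was the lowest of the 5 for each member except *Zscan4b*.

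**Figure D3:**
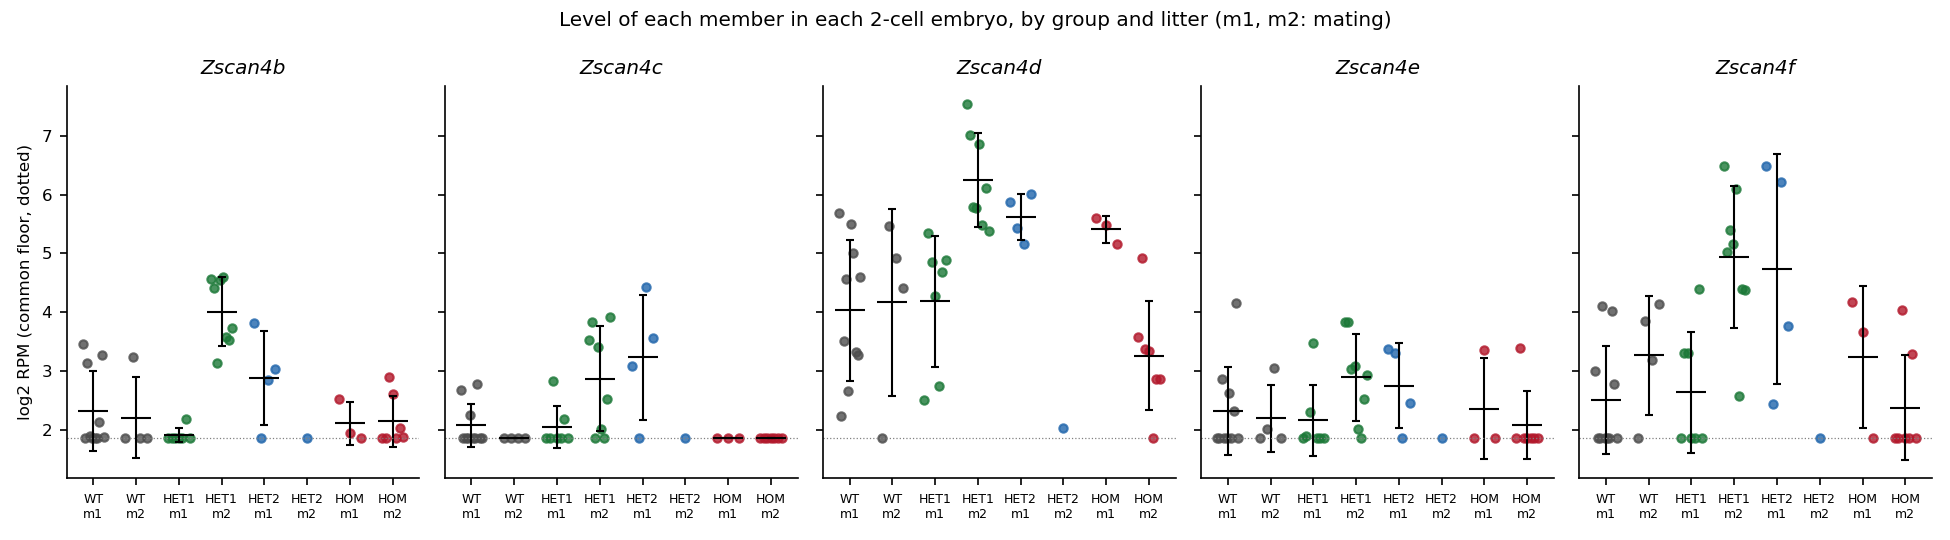
Level of each member in each embryo (points) on the log2 RPM scale with the common floor (dotted line), by group and litter, with the mean and SD of each litter (bars; HET2 m2 is 1 embryo). The *Zscan4d* values of mating 2 of HET1 lie above those of mating 1, and those of mating 2 of HET2 and HOM lie below those of mating 1.

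None of the 5 members differed between HOM and WT embryos by more than the spread between embryos. Their log2 differences lay between -0.17 and -0.09, where 3 of 16294 genes (0.0184%) were called at an adjusted p under 0.05 (limma). The common floor limits these differences, since *Zscan4c* lay at it in all 10 HOM embryos. The HOM medians of *Zscan4e* (0.831 RPM) and *Zscan4f* (2.72 RPM) lay under it as well. In alternative settings the differences ran from -0.45 to 0.088 for *Zscan4b* and from -0.62 to -0.096 for *Zscan4c*. They ran from -0.45 to 0.11 for *Zscan4e* and from -0.80 to -0.035 for *Zscan4f*. The mean of *Zscan4d* was 3.90 ± 1.29 log2 RPM in HOM embryos (SD, n = 10) and 4.07 ± 1.26 in WT embryos (SD, n = 14), which differ by -0.17 ± 0.55 (SE; adjusted p = 0.93, limma). These HOM embryos join 2 litters, with *Zscan4d* means of 5.41 log2 RPM in mating 1 and 3.26 in mating 2. Without mating 1 of that cross the *Zscan4d* difference was -0.81 (adjusted p = 0.50, limma) and without mating 2 it was 1.34 (adjusted p = 0.57, limma), so its direction turns with the litter left out. The unadjusted p was over 0.05 for each of the 5 members. The count over all genes was 128 without HOM embryo 1, 44 without HOM embryo 5 and at most 247 without a litter, with 0 members called in each case. Here and in the other comparisons with WT embryos, group cannot be told apart from litter, since no WT litter held another genotype.

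In HET1 embryos each of the 5 members had a higher mean than in WT embryos, by 0.27 to 1.21 on the log2 scale, and none was called. Over all genes 759 of 16294 (4.66%) were called, and the median difference was 0.05. Leaving out 1 embryo moved that count between 450 (without HET1 embryo 9) and 1010 (without HET1 embryo 1). The mean of *Zscan4d* was 5.28 ± 1.41 log2 RPM in HET1 embryos (SD, n = 15), which lies above that of WT embryos by 1.21 ± 0.50 (SE; adjusted p = 0.16, limma). *Zscan4f* had a difference of 1.14 ± 0.51 (SE; adjusted p = 0.20, limma) and *Zscan4b* of 0.74 ± 0.31 (SE; adjusted p = 0.18, limma). At an unadjusted p under 0.05, 4 of the 5 members passed, with *Zscan4e* the exception, as did 3026 of the 16294 genes. These means join 2 litters that lay far apart. Without mating 1 of HET1 embryos, *Zscan4b*, *Zscan4c*, *Zscan4d* and *Zscan4f* were called, where 2342 of 16294 genes were. Without mating 2 the difference was 0.11 for *Zscan4d* and -0.38 for *Zscan4b*, with 0 members called, where 6 genes were.

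In HET2 embryos the differences from WT embryos lay between 0.29 and 1.43, and 0 of 5 members were called, where 5 of 16294 genes (0.0307%) were. *Zscan4f* had the largest difference of the 5, at 1.43 ± 0.72 (SE; adjusted p = 0.59, limma), and *Zscan4c* one of 0.94 ± 0.32 (SE; adjusted p = 0.40, limma). *Zscan4d* had a difference of 0.83 ± 0.69 (SE; adjusted p = 0.82, limma). Only *Zscan4c* had an unadjusted p under 0.05 among the 5, as had 1386 of the 16294 genes. Without mating 1, which leaves HET2 embryo 5 alone, the *Zscan4d* difference was -2.05. Without that embryo the differences were 2.01 for *Zscan4f*, 1.22 for *Zscan4c* and 1.55 for *Zscan4d*, and 0 members were called, where 36 of all genes were.

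HOM and HET2 embryos shared their litters, so genotype could be compared with litter in the model. No member was called, where 2 of 16294 genes (0.0123%) were, namely *Dppa2* and *Dppa4*, from which the genotypes had been assigned. *Zscan4d* had a log2 difference of 0.28 ± 0.47 (SE; adjusted p = 1, limma), and *Zscan4c* one of -0.91 ± 0.37 (SE; adjusted p = 0.89, limma), the only unadjusted p under 0.05 of the 5, where 716 of the 16294 genes had one. Within mating 1, *Zscan4d* stood at 35.7, 44.6 and 48.4 RPM in the 3 HOM embryos, inside the range of the 4 HET2 embryos (35.8 to 64.4 RPM) but for its lowest value. In the same litter *Zscan4c* was at most 2.55 RPM in HOM embryos, while 3 of 4 HET2 embryos held 8.43 RPM or more. Without HET2 embryo 5, which leaves mating 1 alone to compare the genotypes, the difference was -0.21 for *Zscan4d* and -1.37 for *Zscan4c*, and 0 members were called.

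Between litters of 1 cross members were called, 4 of them in HET1 embryos. In mating 2, 8 of 8 embryos held more *Zscan4d* and more *Zscan4b* than any embryo of mating 1. *Zscan4d* stood at 187, 130, 55.7, 55.0, 117, 44.8, 69.0 and 41.7 RPM in mating 2 and between 5.66 and 40.7 RPM (median 25.6) in the 7 embryos of mating 1, which gives a log2 difference of 2.07 ± 0.53 (SE; adjusted p = 0.0053, limma). *Zscan4b* lay between 8.74 and 24.2 RPM (median 17.3) in mating 2 and between 0 and 4.52 RPM (median 2.22) in mating 1, a difference of 2.104 ± 0.30 (SE; adjusted p = 5.5e-06, limma). The litters did not overlap for these 2 members, which holds for 0.988% of the tested genes in this direction.

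*Zscan4f* lay between 5.97 and 90.3 RPM (median 34.4) in mating 2 and between 0 and 21.1 RPM (median 2.45) in mating 1, with 6 of 8 embryos above the highest of mating 1, and a difference of 2.31 ± 0.59 (SE; adjusted p = 0.0056, limma). *Zscan4c* had a median of 8.17 against 1.23 RPM and a difference of 0.82 ± 0.28 (SE; adjusted p = 0.038, limma). *Zscan4e* had a median of 7.88 against 2.22 RPM and a difference of 0.73 ± 0.35 (SE; adjusted p = 0.16, limma). So 4 of 5 members rose in mating 2 and 0 fell, where 2734 of all genes (16.8%) were called and 821 (5.04%) were higher in mating 2. With embryos re-centred on their median, 1655 of 15922 genes were higher in mating 2 and 373 lower. *Zscan4c* lost its call in 4 of 6 alternative settings (adjusted p from 0.026 to 0.21, limma) and in 9 of 43 fits that left out 1 embryo, whereas *Zscan4b*, *Zscan4d* and *Zscan4f* kept theirs in each setting that tested them and in each of the 43. Depth was similar in the 2 litters, with medians of 663861 and 524828 total reads.

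In the crosses of cKO females with heterozygous males *Zscan4d* was lower in mating 2, and whether this difference between litters differs from that of HET1 was not tested. In mating 1, 4 HET2 and 3 HOM embryos lay between 35.7 and 64.4 RPM (median 44.6). In mating 2, *Zscan4d* stood at 4.06 RPM in the HET2 embryo and at 11.9, 30.2, 10.4, 10.2, 0, 7.29 and 7.30 RPM in the 7 HOM embryos, so that 8 of 8 embryos lay below the lowest of mating 1, as was the case for 1.24% of the tested genes. With genotype in the model, a contrast that was added after the values had been seen, the log2 difference was -2.55 ± 0.44 (SE; adjusted p = 0.01, limma), where 563 of all genes (3.46%) were called and 327 (2.01%) were lower in mating 2. Without HET2 embryo 5 the difference was -2.15 and the adjusted p 0.067 (limma), and no member was called, where 155 of all genes (0.951%) were called and 78 (0.479%) were lower. Without HOM embryo 2, 193 of all genes were called. With embryos re-centred on their median, 562 of 15922 genes were higher in mating 2 and 210 lower.

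The other members were lower in mean in mating 2 of this cross by 0.26 to 1.41 on the log2 scale, and 0 of these 4 were called. *Zscan4f* had a median of 13.6 RPM in mating 1 and of 0 in mating 2, with reads in 3 of 8 embryos, and a difference of -1.41 ± 0.78 (SE; adjusted p = 0.36, limma), or -0.86 without HET2 embryo 5. Within HOM embryos alone, 3 against 7, the *Zscan4d* difference was -2.15 ± 0.70 (SE; adjusted p = 0.09, limma), and 0 of 5 members were called, where 273 of all genes (1.68%) were, between 107 and 513 without single HOM embryos. The 513 were called without HOM embryo 5, the 1 such omission in which *Zscan4d* was called (adjusted p = 0.047, limma). *Zscan4c* could not be called between HOM litters on floored values, since every HOM embryo lay at the common floor for it. The 2 litters of WT embryos overlapped. *Zscan4d* had a median of 17.5 RPM in mating 1 and 25.7 in mating 2, a difference of 0.13 ± 0.60 (SE; adjusted p = 1, limma), and 0 of 5 members were called, where 408 of all genes (2.5%) were. Over all genes that count was 218 without WT embryo 11, 790 without WT embryo 13 and 932 without WT embryo 14. The only WT embryo without *Zscan4d*, in mating 2, held 1 read of the family in all.

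**Figure D4:**
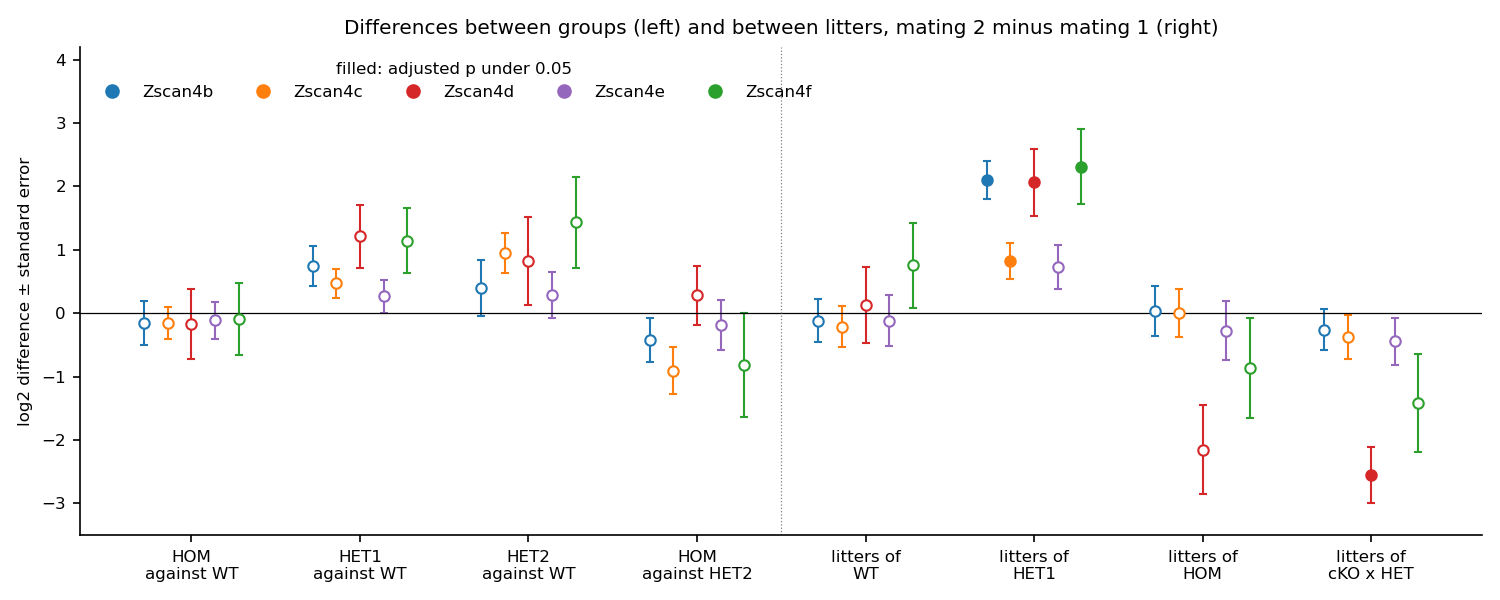
Log2 difference and standard error of each member in the 4 comparisons of groups (left) and in the differences between litters, mating 2 minus mating 1 (right; cKO x HET takes HET2 and HOM embryos together). Filled points have an adjusted p under 0.05 (limma): *Zscan4b*, *Zscan4c*, *Zscan4d* and *Zscan4f* in HET1 litters and *Zscan4d* in the litters of cKO x HET, with no filled point on the left.

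The rows *Zscan4-ps1* to *Zscan4-ps3* belong to the same cluster, and their reads can be mixed up with those of the members. *Zscan4-ps3* had reads in 30 embryos (median 2.29 RPM) and followed the members most closely, with a difference between HET1 litters of 1.79 ± 0.46 (SE; adjusted p = 0.0062, limma) and medians of 24.6 RPM in mating 2 and 0 in mating 1. Its levels had a Pearson correlation of 0.82 with *Zscan4f* over the 44 embryos. *Zscan4-ps1*, the row with the largest share of windows of its own (65.8%), had reads in 12 of 14 WT, 8 of 15 HET1, 5 of 5 HET2 and 2 of 10 HOM embryos, at unequal depth. Its median was 4.68 RPM in WT embryos and 0 in HOM embryos, a log2 difference of -0.69 ± 0.30 (SE; unadjusted p = 0.025, adjusted p = 0.27, limma). *Zscan4-ps2* had reads in 19 embryos and was not called in any comparison (smallest adjusted p = 0.057, litters of HET1, limma).

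*Dppa2* and *Dppa4* are known to act upstream of *Zscan4* in ESCs. Since the HOM and HET2 labels were assigned from these transcripts, their levels cannot check those labels. *Dppa2* lay between 204 and 678 RPM in WT embryos, between 40.2 and 345 RPM in HET1 embryos, between 27.2 and 101 RPM in the HET2 embryos of mating 1, at 472 RPM in HET2 embryo 5 and between 0 and 4.15 RPM in HOM embryos, and *Dppa4* was at most 4.05 RPM in HOM embryos. Both were lower in the HET1 litter with the higher *Zscan4* levels. *Dppa2* had a median of 145 RPM in mating 1 and 48.6 RPM in mating 2, a log2 difference of -1.56 ± 0.29 (SE; adjusted p = 0.00019, limma), and *Dppa4* medians of 73.6 and 26.3 RPM, a difference of -1.79 ± 0.31 (SE; adjusted p = 8.7e-05, limma). *Duxf3*, the row of *Dux*, had reads in 7 of 44 embryos and at most 12.8 RPM, in 2 of 8 embryos of mating 2 and 1 of 7 embryos of mating 1 of HET1. At this depth no level of *Dux* could be compared with that of the family.

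Lists of genes around the family were compared in the same fits, with the median difference of all genes at -0.06 between HET1 litters and 0.00 between the litters of cKO x HET. Of all genes, 5.04% were higher and 11.7% lower in mating 2 of HET1, and 1.45% were higher and 2.01% lower in mating 2 of cKO x HET. This balance turned with embryos re-centred on their median, a scale on which the lists were not counted. Of 15922 genes, 1655 were then higher and 373 lower in HET1, and 562 higher and 210 lower in cKO x HET. Of 27 tested partners in the 2C-like state, 16 rose and 0 fell in mating 2 of HET1 (median difference 2.00), and 0 rose and 10 fell in mating 2 of cKO x HET (median -1.84). Without HET2 embryo 5, 1 of the 27 fell in cKO x HET (median -1.81). *Tcstv1* (4.23, adjusted p = 2.3e-06), *Gm4340* (3.50, adjusted p = 4.8e-06) and *Gm20767* (3.42, adjusted p = 8.8e-07, limma) had the lowest adjusted p of this list in HET1 litters. The 8 markers of the 2-cell embryo share *Zfp352*, *Tcstv1*, *Tcstv3*, *Tmem92* and *Sp110* with that list, so the counts of these lists overlap. They counted 5 higher and 1 lower in HET1, and the lower gene was *Pdxk*, the kinase that makes active vitamin B6 (-2.38, adjusted p = 4e-04, limma). In cKO x HET 0 of the 8 rose and 2 fell, *Tcstv1* and *Tcstv3*, or 0 without HET2 embryo 5.

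Called transcripts of the oocyte's stores differed in the same direction as the called members. Of 17 maternal genes, 8 rose and 0 fell in mating 2 of HET1 (median difference 1.04), and 0 rose and 5 fell in mating 2 of cKO x HET (median -1.05), or 2 without HET2 embryo 5 (median -1.03). *Oosp1*, which encodes a protein secreted by oocytes, rose by 2.70 on the log2 scale in HET1 (adjusted p = 2.4e-06, limma), *Tcl1*, a coactivator of AKT kinase, by 3.48 (adjusted p = 5.7e-05, limma), and *Btg4*, an adaptor of the deadenylase that removes maternal mRNA, by 2.52 (adjusted p = 5.2e-06, limma). The summed level of the 17 genes lay between 4006 and 10004 RPM in mating 1 of HET1 and between 15008 and 23393 RPM in mating 2. It lay between 12973 and 19733 RPM in mating 1 of cKO x HET and between 3606 and 9701 RPM in mating 2. The litters did not overlap in this sum, and its part in the differences of the family was not tested.

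Each of the other lists held at most 1 higher gene in mating 2 of HET1. Of 18 genes of genome activation, 0 rose and 4 fell in mating 2 of HET1 (median -0.41), among them *Rpl22l1* (-2.52, adjusted p = 0.0014) and *Ddx21*, a nucleolar RNA helicase (-2.04, adjusted p = 0.0041, limma), and 1 rose in mating 2 of cKO x HET, or 0 without HET2 embryo 5. Of 11 activators of the 2C-like state, 0 rose and 4 fell in HET1, *Dppa2* and *Dppa4* among them, and 0 were called in cKO x HET. In HET1 against WT embryos 2 of the 11 activators were higher and 3 lower, where 4.66% of all genes were called. These calls were lost once litter entered as a random effect, since 0 of 16294 genes were then called. *Nelfa*, a subunit of the negative elongation factor, was 1 of the 2 higher activators, at 1.61 (adjusted p = 0.0047, limma). Its difference between HET1 litters was 0.95 (adjusted p = 0.16, limma). Of 16 repressors of that state, 0 rose and 2 fell in HET1 litters, a share close to the 11.7% of all genes on the main scale. With embryos re-centred on their median, 373 of 15922 genes were lower. The 2 repressors were *Ehmt2*, an H3K9 methyltransferase, at -1.08 (adjusted p = 0.017, limma) and *Pcgf6*, of a Polycomb complex, at -0.85 (adjusted p = 0.015, limma). Of 8 genes of DNA methylation, 1 rose and 3 fell in HET1, with *Tet3* at 1.44 (adjusted p = 0.013, limma) and *Tet1* at -1.32 (adjusted p = 0.0046, limma). Of 16 genes of telomeres and recombination 0 were called there. *Acd*, a shelterin subunit, was the 1 gene of this list called in HET1 against WT embryos, at 1.57 (adjusted p = 0.035, limma), and had a difference of 1.46 between HET1 litters (adjusted p = 0.09, limma). The call of *Acd* was lost with litter as a random effect. In cKO x HET each of the last 3 lists held 1 called gene, *Kdm1a* of the repressors (2.102), *Dnmt1* of DNA methylation (1.31) and *Terf2ip* of the telomere genes (-2.05), named after their values were seen, and without HET2 embryo 5 these lists held 0. Of 10 tested Zscan genes outside the family, 0 rose and 4 fell in HET1 litters and 0 were called in the litters of cKO x HET. Blastocyst and granulosa markers had 0 calls in either pair of litters.

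Among themselves the members varied together over the 44 embryos. The Pearson correlation of floored log2 levels lay between 0.32 and 0.71 over the 10 pairs (median 0.53), highest for *Zscan4b* with *Zscan4f* and lowest for *Zscan4c* with *Zscan4e*. After the mean of each litter had been removed, it lay between 0.08 and 0.51 (median 0.25). The embryos share litters and their members share sequence, and both enter these values. The summed RPM of the members had a Spearman correlation of 0.04 with total reads over the 44 embryos, and on the log2 scale a Pearson correlation of 0.28 within litters.

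Of 9751 genes outside the family with at least 3 reads in at least 22 embryos, those whose RPM followed the summed RPM of the members most closely included *Tiparp* (Spearman rho 0.88), *Omt2b* (0.87), *AA545190*, *Nlrp9c*, *Bmp2k*, *Immp1l*, *Gm20767*, *Skint6* and *Gm48578* (0.85). The median over the genes compared was -0.07 and the 99th percentile was 0.76. *Tiparp* encodes an ADP-ribosyltransferase, *Omt2b* and *Nlrp9c* are transcribed in oocytes, *Bmp2k* encodes a kinase and *Immp1l* a mitochondrial peptidase. With the mean of each litter removed, the 10 highest were *Omt2b* (Pearson r 0.70), *AI987944* (0.69), *Bmp2k* (0.69), *Srgn* (0.69), *Tiparp* (0.68), *Ppip5k2* (0.67), *Rnf138*, *Nudt7*, *Dcun1d5* and *Pak7* (0.65), and 3 genes (*Tiparp*, *Omt2b* and *Bmp2k*) stood among the 10 highest by both measures. These correlations are over 44 embryos that share litters and are a description. *Dppa2* had a Spearman correlation of -0.19 and *Dppa4* of -0.23 with the summed members over all embryos, and a Pearson correlation of -0.03 and -0.16 within litters.

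**Figure D5:**
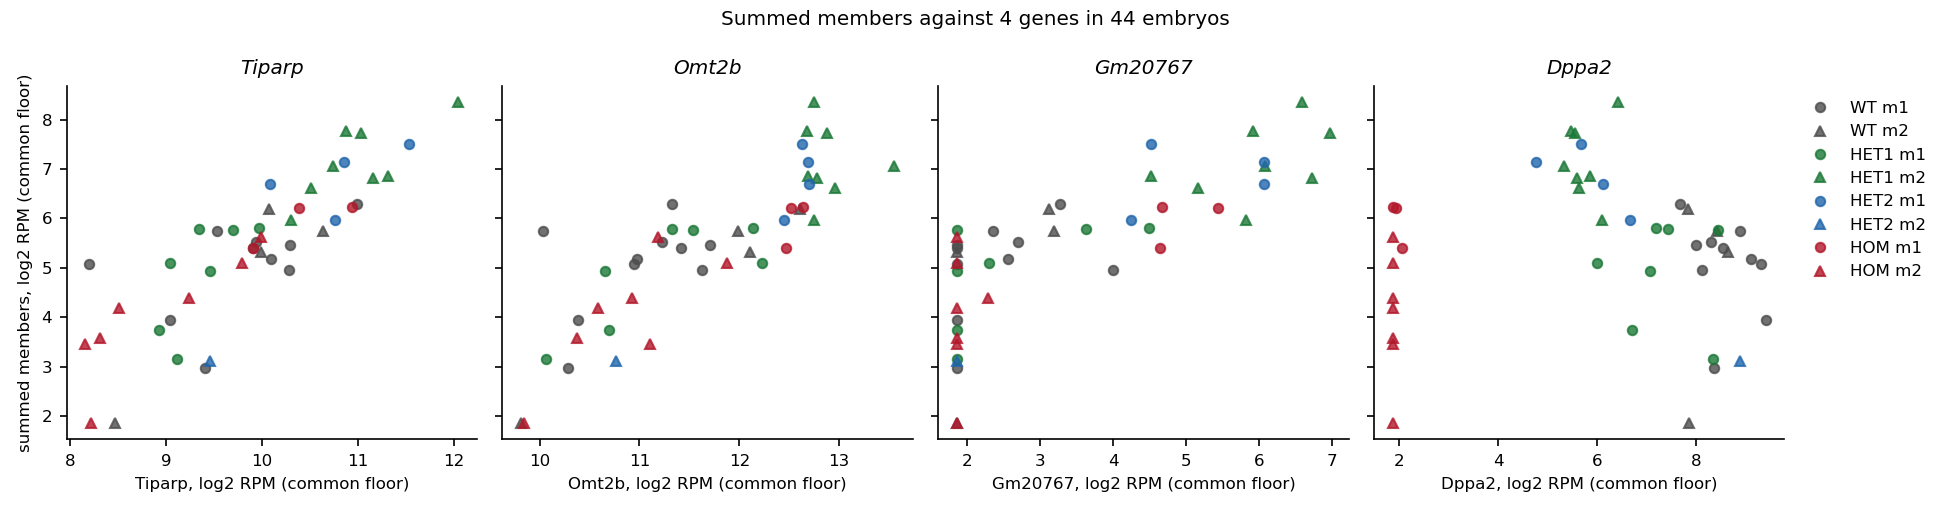
Summed level of the members in each of 44 embryos against *Tiparp*, *Omt2b*, *Gm20767* and *Dppa2* (log2 RPM with the common floor; colours are groups, circles mating 1 and triangles mating 2). The first 3 genes follow the members (Spearman rho 0.88, 0.87 and 0.85), while *Dppa2* (-0.19) does not.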

How the data were processed

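Polyadenylated RNA of single 2-cell embryos had been captured on oligo-dT beads, amplified and sequenced as pairs of 75 bp, with no molecular identifiers. The authors trimmed reads with Trim Galore 0.6.5 and cutadapt 2.3 and mapped them with HISAT2 2.1.0 (versions per the submitters' processing notes) to GRCm38, kept those with a MAPQ of at least 20, and counted them per gene in SeqMonk on both strands together. The deposited unit is log2 RPM, from which whole reads were recovered for 99.9997% of values (within 0.05 read).

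The tests used limma 3.58.1 under R 4.3.3 with a mean-variance trend, on values with the common floor, for 16294 genes with a mean of at least 0 log2 RPM (118 further genes, at 1 value in all embryos, were left out). P-values were adjusted by Benjamini-Hochberg over these genes, and 0.05 was the threshold. Group comparisons used 1 model of the 4 groups. Litters were compared in a model of group by litter, HOM with HET2 in a model with litter. The fits were tested on simulated data without spread between litters, with changes placed only in genes with a mean of at least 3 log2 RPM. *Zscan4d* is the only member above that mean, so the simulation covers neither the other members nor the spread between litters. Python 3.11.15 with scipy 1.17.1, Biopython 1.88 and matplotlib 3.10.9 gave the remaining values.

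Named genes were the members, the -ps rows, *Dppa2*, *Dppa4* and *Duxf3*, per list the 3 genes lowest in adjusted p among those called (with none called, highest in mean), and the 10 genes most like the family, overall and within litters, of which 1 is not reported here. Members and lists were chosen with earlier results of these data known, and the litter contrast of cKO x HET with its alternatives, and the omission of single embryos other than those of HET2 in group comparisons, after the values were seen. Alternatives were other floors, scalings, filters and weights, litter as a random effect or as the replicate, and the omission of litters. Read counts are not counts of molecules, the floor of 3 reads covers counting error only, and under it a level could not be told from 0.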

Additional observations from a re-analysis of the deposited data

Results flagged for a closer look

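The 5 members and their sum were examined in HET2 and in HOM embryos for an embryo far from the rest. Among these 12 sets of values, *Zscan4d* in HET2 embryo 5 was the only case. WT and HET1 embryos were not examined, and *Zscan4c* in HOM embryos could give no case, since its values all lay at the common floor. Chance alone picks out a small share of such sets. It stood at 2.02 log2 RPM (4.06 RPM), while the other HET2 embryos lay between 5.16 and 6.01, and its gap of 0.788 of the group's range exceeds the critical value of 0.71 for 5 embryos. It is also the only HET2 embryo of mating 2, whose 7 HOM embryos held at most 30.2 RPM.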

How the results depend on the processing

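The calls in HET1 litters held for *Zscan4b*, *Zscan4d* and *Zscan4f* in every alternative that tested them and without any single embryo. *Zscan4c* lost its call in 4 of 6 alternatives (adjusted p between 0.026 and 0.21 over the 6, limma) and in 9 of 43 omissions of 1 embryo. With a mean of at least 3 log2 RPM required, *Zscan4d* was the only member tested and 1 member was called, where 2456 of 6919 genes were. *Zscan4d* in the litters of cKO x HET kept its call in 7 of 7 alternatives, and leaving out embryos gave 0 to 1 members called, with 0 without the HET2 embryo of mating 2 (adjusted p = 0.067, limma). In HOM litters such omissions gave 0 to 1 members called, with *Zscan4d* called without HOM embryo 5 (adjusted p = 0.047, limma), where 513 of all genes were called. In HET1 against WT they gave 0 to 4, the latter without mating 1 of HET1.

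Apart from that omission, 0 members were called between groups in each alternative run, and several differences changed sign. For *Zscan4d*, HET2 against WT was -0.28 over litter means, HOM against WT was 0.051 with litter as a random effect and 0.23 over litter means, and HOM against HET2 was -0.13 with embryos re-centred on their median and -0.27 with voom on recovered reads. The difference between WT litters was -0.15 re-centred, -0.41 on log2(RPM + 1), -0.40 without the common floor and -0.21 with voom. The cause of these changes was not tested.

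Leaving out 1 embryo or litter gave these ranges. HET1 against WT ran from -0.38 to 1.72 for *Zscan4b*, -0.12 to 0.61 for *Zscan4e* and -0.087 to 2.22 for *Zscan4f*. HET2 against WT ran from -0.15 to 1.22 for *Zscan4c*, -2.05 to 1.55 for *Zscan4d* and -0.86 to 2.01 for *Zscan4f*. For *Zscan4d*, HOM against HET2 ran from -0.21 to 1.24, HOM against WT from -0.81 to 1.34, and WT litters from -0.31 to 0.90. In the litters of cKO x HET *Zscan4b* ran from -0.41 to 0.033. Other ranges that changed sign were, in HET2 against WT, -0.43 to 0.60 for *Zscan4b* and -0.42 to 0.47 for *Zscan4e*. In HOM against HET2 they were -0.78 to 0.28 for *Zscan4b*, -0.45 to 0.22 for *Zscan4e* and -1.49 to 0.51 for *Zscan4f*. In HOM against WT they were -0.25 to 0.079 for *Zscan4e* and -0.63 to 0.51 for *Zscan4f*. For *Zscan4b* and *Zscan4e* they were -0.46 to 0.01 and -0.40 to 0.085 in WT litters, and -0.092 to 0.24 and -0.52 to 0.22 in HOM litters.

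The labels do not say that matings with the same number share an animal or a day, so the mating numbers were not taken to pair the crosses. With the mating number as a replicate block 0 members were called in HET1 against WT, and 593 of all genes. HOM against HET2 without the litter term (no replicate block) gave -0.99 for *Zscan4d*. Over all genes, HET1 against WT called 4054 without the common floor, 1704 with voom and 0 with litter as a random effect (1291 at an unadjusted p under 0.05), and without a litter 6 to 2342. These 2 litters per cross and a median of 52 family reads per embryo limit what could be detected.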
